A study of Mus musculus with 20 samples.

Results

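Srebf2 and 7 targets of its product were followed by gene symbol through the deposited expression tables of mouse retina. The targets were Hmgcs1, Fdft1, Idi1, Sqle, Lss and Cyp51, which encode enzymes of cholesterol synthesis, and Insig1, which encodes a brake on the pathway. Their NCBI gene numbers in the tables are 20788 (Srebf2), 208715 (Hmgcs1), 14137 (Fdft1), 319554 (Idi1), 20775 (Sqle), 16987 (Lss), 13121 (Cyp51) and 231070 (Insig1). All 8 symbols were found, out of 19368 genes in the oxygen-induced retinopathy (OIR) tables and 19102 in the tables of the injected retinas, and all 8 passed the filter on low values in both. Bulk mRNA was sequenced from whole retinas of C57BL/6J mice, 5 libraries in each of 4 groups and 20 in all. The first pair of groups was Atf6+/+ and Atf6-/- retina at postnatal day (P) 17, both after OIR, in which pups breathe 75% oxygen from P7 to P12 and then return to room air. The other pair was wild-type retina at P30, 24 h after an injection of 1 µL into the vitreous of both eyes, either saline (labelled PBS) or 10 µM Ceapin-A7. Both solutions held a little organic solvent, at the same range in the labels but at a lower level with Ceapin-A7 in the study's methods, and if the methods hold, compound and solvent level cannot be told apart. Both sexes were used. The Atf6-/- mice lack ATF6 protein in every cell, so the retina and the rest of the animal cannot be told apart as the source of a difference. Ceapin-A7 is a small molecule that keeps ATF6 from leaving the endoplasmic reticulum.

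Cells make cholesterol from acetyl-CoA through mevalonate, squalene and lanosterol, and the genes of this route are switched on together by SREBP2, the product of Srebf2. SREBP2 is made as a membrane protein of the endoplasmic reticulum, held there by SCAP and the INSIG proteins while sterols are plentiful, and carried to the Golgi when sterols run low. There the site-1 and site-2 proteases, products of Mbtps1 and Mbtps2, cut it and free the transcription factor, and the same 2 proteases cut ATF6. The retina makes much of its own cholesterol, and photoreceptors and Müller glia both take part in its sterol traffic.

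The sequences upstream of the members are shown first because they can be searched for the letters through which SREBP2 and ATF6 are known to act. RefSeq promoter windows (GRCm38.p6, 250 bases before to 50 after a gene's start) were found for 6 of the 8 members, namely Srebf2, Hmgcs1, Insig1, Idi1, Lss and Cyp51. The sterol element was searched on both strands in 2 overlapping forms, TCACCNCA and TCACNCCA, chosen after the sequences had been seen. Either form was present in 3 of the 6 windows and in 7.18% of all 32851 windows. The CCAAT box, which binds NF-Y, a partner of both SREBP2 and ATF6, was present in 6 of 6 and in 37.4% of all windows. The 3 windows with a sterol element are printed here on the gene's strand, up to the first annotated exon of GENCODE M21, with the sterol element and the CCAAT box (ATTGG where it lies on the other strand) in capitals.
Srebf2, chr15:82147019-82147180, plus strand: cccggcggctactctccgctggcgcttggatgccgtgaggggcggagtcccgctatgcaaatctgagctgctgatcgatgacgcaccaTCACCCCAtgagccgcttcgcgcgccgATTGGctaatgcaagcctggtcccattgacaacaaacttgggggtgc
Hmgcs1, chr13:119690101-119690350, plus strand: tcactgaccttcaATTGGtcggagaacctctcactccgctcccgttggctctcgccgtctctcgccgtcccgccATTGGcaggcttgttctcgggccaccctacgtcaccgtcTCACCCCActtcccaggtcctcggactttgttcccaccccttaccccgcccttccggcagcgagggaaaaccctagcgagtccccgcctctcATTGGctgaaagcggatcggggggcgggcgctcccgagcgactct
Cyp51, chr5:4104747-4104947, minus strand: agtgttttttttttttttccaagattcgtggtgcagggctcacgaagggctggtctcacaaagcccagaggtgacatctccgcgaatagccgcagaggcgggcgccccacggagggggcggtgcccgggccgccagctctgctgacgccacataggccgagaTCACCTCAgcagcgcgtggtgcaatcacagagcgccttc
Among 13 windows of other enzymes of the route 2 held the element, those of Msmo1 and Hsd17b7. The element began 162 bases before the RefSeq start in Srebf2, 137 before it in Hmgcs1 and 88 before it in Cyp51. The CCAAT box of Cyp51, which began 29 bases before the start, lies beyond the printed stretch. The ATF6 element, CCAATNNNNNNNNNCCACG on either strand, contains the CCAAT box. It was present in 0 of the 6 members' windows, in 6 of 12 windows of a list of ATF6 targets and in 0.119% of all windows. In Hspa5, which encodes the chaperone BiP, it read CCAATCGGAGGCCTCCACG and began 65 bases before the start. A match is a run of letters and not a measured binding site, and no binding was measured here.

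Some features of the libraries bear on every value below. Within each experiment, the steps between low values placed the libraries at one relative depth, apart from Ceapin-A7 replicate 3. That library was estimated at 0.66 of it, a blurred estimate whose peak was 1.02 times the next. Depth was not compared between the experiments. Whole-gene FPKM of Atf6 was 14.61 to 16.05 in Atf6+/+ and 13.57 to 16.83 in Atf6-/- OIR retinas, and the study ascribes the loss of the protein to an early stop codon, so the RNA level is no check of the genotype labels. Rod markers summed to 13142.9 FPKM or more in every library, and markers of retina were present throughout. Lens fibre markers summed to at most 380 FPKM at P17 but ranged from 5.2 to 6513.3 FPKM at P30, with 5 libraries above 1000. At P17, 4 of 5 Atf6+/+ libraries had a rising trend of their log2 deviations with transcript GC content (Spearman's rho 0.33 to 0.386 across genes) and 4 of 5 Atf6-/- libraries had a falling one (-0.552 to -0.156). Atf6+/+ replicate 4 (-0.31) and Atf6-/- replicate 5 (0.415) went against their groups. The 5 genes called at P17 at an adjusted p under 0.05 by limma were looked up after their values had been seen. In them both of these libraries lay with their labelled genotype and the groups did not overlap. The 5 genes were called for differing between the labelled groups in these same libraries, so they are no independent check of the labels. Among the 5, Gm29733 is a predicted gene that RefSeq places within Atf6. It read 0 FPKM in Atf6+/+ replicate 4 and 0 to 0.21 in its group. In Atf6-/- replicate 5 it read 3.12, and 4.76 to 6.89 in the rest of that group. Neither the labels nor the methods name a library batch, so whether a batch moves with the GC trend was not tested. In bulk tissue, fewer cells of a type and less RNA per cell cannot be told apart.

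The members were abundant and stood higher at P30 than at P17. Since age, oxygen and injection differ between the 2 experiments and cannot be told apart, these levels are a description with no test. Insig1 had a mean of 14.66 ± 2.07 FPKM (SD, n = 5) in Atf6+/+ OIR and 44.5 ± 4.48 in saline-treated retinas, 3.03 times as much. Idi1, which isomerises isopentenyl diphosphate, was 2.87 times as high in saline-treated retinas, and Cyp51, which demethylates lanosterol, 2.05 times. Hmgcs1, the HMG-CoA synthase, stood at 30.69 ± 4.06 FPKM in Atf6+/+ OIR and 61.4 ± 2.96 in saline-treated retinas. Srebf2, Sqle (squalene epoxidase) and Fdft1 (squalene synthase) had ratios of 1.66, 1.63 and 1.55. For 7 of the 8 members all 10 P30 libraries lay above all 10 P17 libraries, as they did for 14.5% of all genes. Lss, the lanosterol synthase, was the exception, at 9.15 to 10.17 FPKM in Atf6+/+ OIR and 10.3 to 11.87 in saline-treated retinas, with the highest Atf6-/- library at 10.6. The median log2 ratio of saline-treated to Atf6+/+ OIR retinas over all genes was -0.02.

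The 4 group means took the order Atf6-/- OIR, Atf6+/+ OIR, Ceapin-A7, saline in 6 of the 8 members, from low to high. In Fdft1 and Cyp51 the 2 OIR groups changed places. Neighbouring groups overlapped at each age in 7 members, and in Hmgcs1 the Ceapin-A7 and saline libraries did not overlap. FPKM is scaled by transcript length, so levels can be compared between genes: in saline-treated retinas Hmgcs1 was the most abundant member, followed by Srebf2 at 46.18 ± 2.99 and Insig1, and Lss was the least, at 11.25 ± 0.695.

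**Figure D1:**
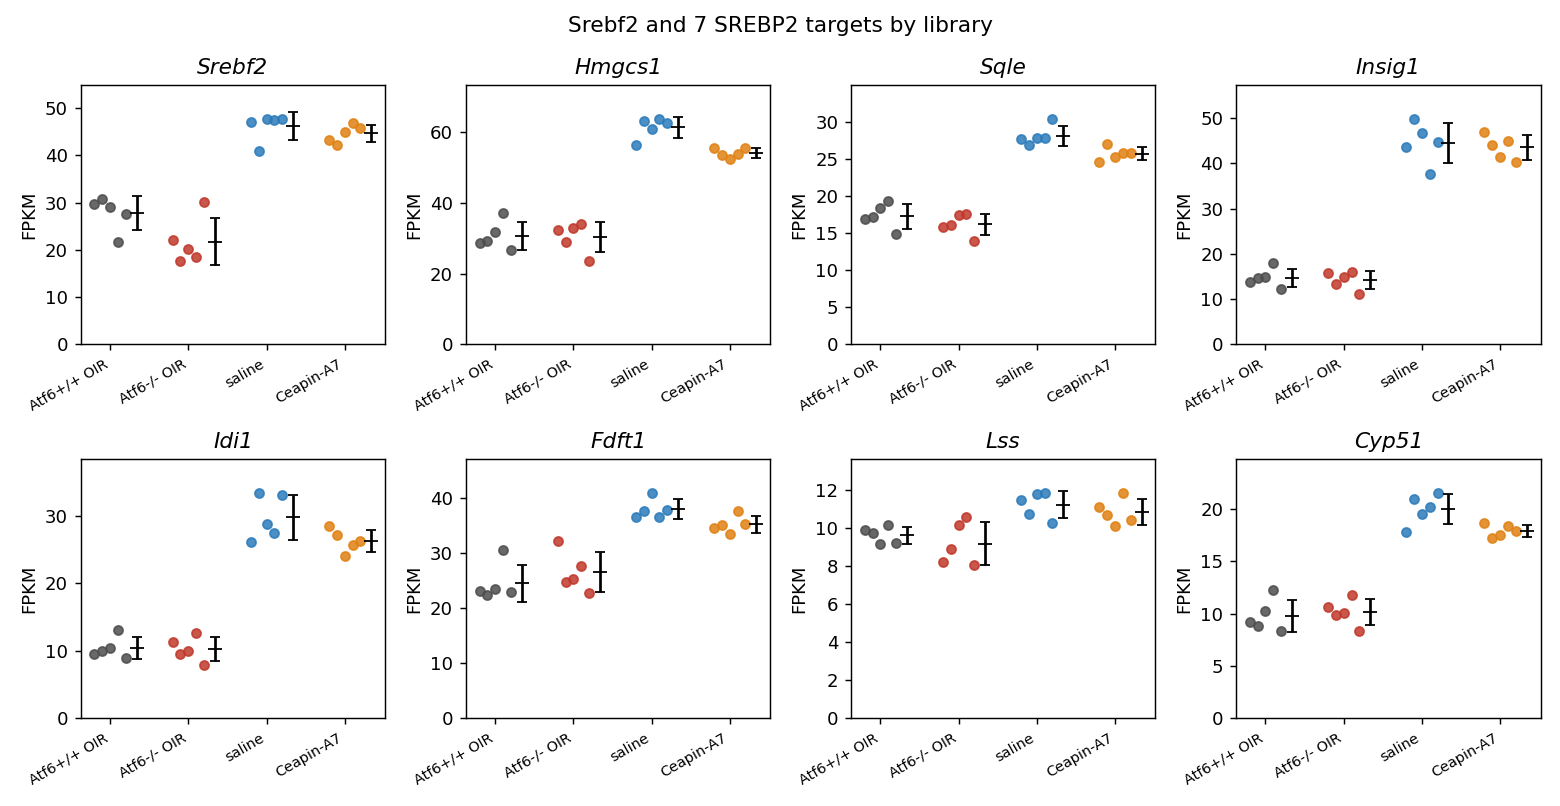
FPKM of Srebf2 and 7 targets in the 20 libraries, 1 panel a gene, each axis starting at 0. Points are libraries in order of replicate number, and black bars give the mean and SD of 5. For every gene but Lss the P30 points lie above all P17 points, and within an age the groups lie close together.

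The comparison of Atf6-/- with Atf6+/+ OIR retina asks how the members stood where ATF6 was lost for life. Of the 8 members, 0 passed an adjusted p under 0.05, against 0.0318% of the 15704 genes tested. With p before adjustment at or under 0.05 there was 1, against 12.7% of all genes, 6.92% higher and 5.83% lower. Of the genes at that threshold 54.3% were higher, or 30.5% with FPKM as deposited, so the balance of directions over all genes depends on the scaling. The 1 member was Srebf2. Its FPKM was 29.74, 30.72, 29.11, 21.68 and 27.62 in the Atf6+/+ libraries and 22.14, 17.56, 20.19, 18.54 and 30.1 in the Atf6-/- libraries. The groups overlapped through Atf6+/+ replicate 4, the lowest of its group, and Atf6-/- replicate 5, the highest of its group, and 3 of 5 Atf6-/- libraries lay below all Atf6+/+ libraries. The log2 fold change was -0.35 ± 0.157 (SE), with a 95% interval of -0.70 to -0.011 and an unadjusted p of 0.0442 by limma (adjusted p = 0.383). The exact two-sided permutation p of this difference was 0.119, where the smallest that 5 against 5 libraries allow is 0.00794.

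The 7 targets lay closer to 0, with both signs. Hmgcs1 read 28.72, 29.19, 31.7, 37.21 and 26.64 FPKM in Atf6+/+ and 32.45, 28.94, 33.04, 33.99 and 23.54 in Atf6-/- retinas, a log2 fold change of 0.00 with an interval of -0.21 to 0.21. Its sign turned under other filters and scalings, so no direction is given. Fdft1 read 23.08, 22.39, 23.52, 30.56 and 22.86 FPKM in Atf6+/+ and 32.16, 24.71, 25.33, 27.57 and 22.74 in Atf6-/- retinas, and had the largest positive value, 0.13 (interval -0.08 to 0.34). That value was 0.057 without Atf6-/- replicate 1 and 0.2 without Atf6+/+ replicate 4. Both pairs of groups overlapped. Insig1, at 12.31 to 17.92 FPKM in Atf6+/+ and 11.1 to 15.88 in Atf6-/- retinas, had a log2 fold change of -0.03. Sqle at -0.08, Lss at -0.06, Idi1 at -0.01 and Cyp51 at 0.07 completed the list, and the adjusted p over the 7 targets by limma ran from 0.526 to 0.999. The groups overlapped in all 8 members, while in 0.694% of all genes every Atf6-/- library lay below every Atf6+/+ library. Of the 8 members 5 were lower and 3 higher, where 49.3% of all genes were lower, with a median log2 fold change of -0.02 against 0.00 over all genes. The intervals of the 7 targets reach from -0.27 to 0.34 on the log2 scale. In the Atf6-/- group 7 of 7 lens fibre markers were lower. Of these, 6 had an unadjusted p of 0.05 or less by limma, where 5.83% of all genes were lower at that threshold. Of 5 pigment epithelium markers 4 were higher. The part of these markers in the members' values was not tested.

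Among the P17 libraries most of the 7 targets moved together. Srebf2 stood at the opposite extreme to them in Atf6+/+ replicate 4 and Atf6-/- replicate 5. In Atf6+/+ replicate 4, which had the lowest Srebf2 of its group, all 7 targets were at the highest level of the group. In Atf6-/- replicate 5, which had the highest Srebf2 of its group, all 7 targets were at the lowest. The mean log2 deviation of the 7 targets from their group means was 0.21 in the first of these libraries and -0.20 in the second, where Srebf2 stood at -0.40 and 0.57. Over the 10 P17 libraries, the Pearson correlation of a target's deviations with the mean of the other targets was 0.967 for Hmgcs1, 0.965 for Insig1, 0.963 for Idi1 and 0.354 for Lss, the lowest. For Srebf2 against the mean of the targets it was -0.663. The opposite movement did not hold in every library. Atf6-/- replicate 2 had the lowest Srebf2 of its group (-0.316), and its targets were also low. Their mean deviation was -0.095, with 0 of 7 above the group mean. These correlations are descriptions over 10 libraries, which share their depth and GC trend.

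Atf6+/+ replicate 4 and Atf6-/- replicate 5 are also the 2 libraries whose GC trend went against their groups. The longest transcript of Srebf2 had 57.9% GC, against 41.9% to 51.8% in the 7 targets and a median of 50% over all genes. Across all genes the log2 fold change at P17 correlated with GC content (rho = -0.476). With each library corrected for its GC trend, the log2 fold change of Srebf2 was -0.24 (unadjusted p = 0.0548 by limma). With Atf6+/+ replicate 4 and Atf6-/- replicate 5 left out together, an alternative chosen after seeing the data, it was -0.59 (adjusted p = 0.00107 by limma). That choice removes the 2 libraries that break the match of GC trend and genotype, so that GC trend and genotype cannot be told apart in it, and 24.9% of all genes then pass. Srebf2 was the 1 member that passed, and 3 members had an unadjusted p of 0.05 or less, against 38.9% of all genes. With libraries weighted by their spread in limma it was -0.50 (adjusted p = 0.0249), where 17.7% of all genes pass, and 2 members had an unadjusted p of 0.05 or less, against 36.6%. Over all alternatives its adjusted p ran from 0.00107 to 0.696.

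**Figure D2:**
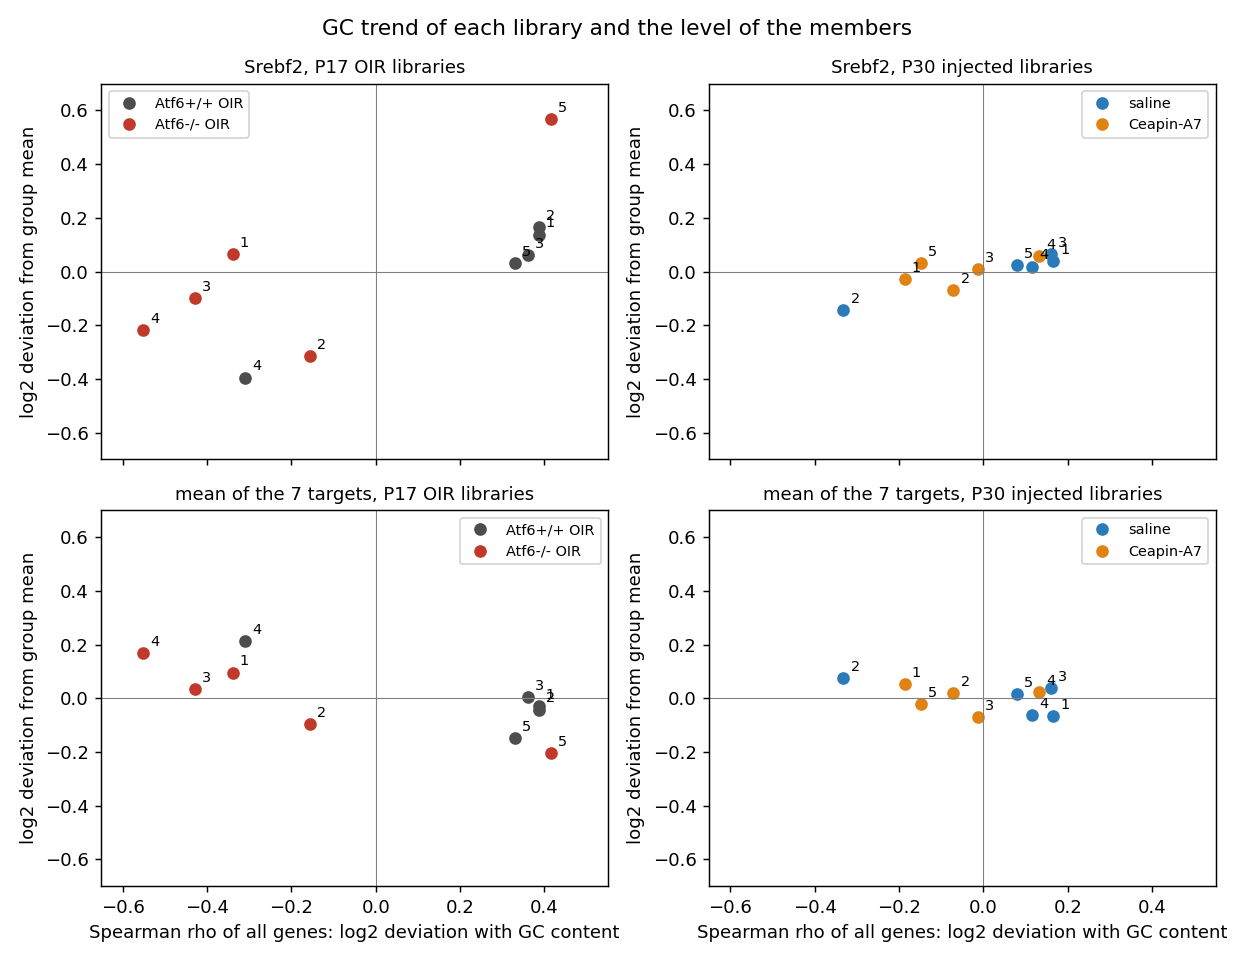
Each library's GC trend (horizontal axis, Spearman's rho across genes between log2 deviation from the mean of the 10 libraries of an experiment and transcript GC content) against the log2 deviation from its own group mean of Srebf2 (upper panels) and of the mean of the 7 targets (lower panels), numbered by replicate. At P17 Atf6+/+ replicate 4 and Atf6-/- replicate 5 lie on the other side of 0 from the rest of their groups on the horizontal axis and at the extremes of their groups on the vertical axis, the first with low Srebf2 and high targets, the second with high Srebf2 and low targets. At P30 all deviations were within 0.15.

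The comparison of Ceapin-A7 with saline asks how the members stood 24 h after injection of this ATF6 inhibitor, in retinas that had not been through OIR. The activity of ATF6 itself was not measured. Here all 8 members were lower in the Ceapin-A7 group, while 49.7% of all 15408 genes tested were lower. The median log2 fold change of the members was -0.12, against 0.00 over all genes. With limma, 0 members passed an adjusted p under 0.05, as did 0.0% of all genes, and 5 of 8, all lower, had an unadjusted p of 0.05 or less, against 10.4% of all genes, 5.04% higher and 5.32% lower. The higher share of those genes was 48.6%, or 26.8% with libraries scaled to the same sum (TPM), where the members' median was -0.157. The targets are not independent of each other: over the 10 P30 libraries a target's deviations correlated with the mean of the other targets at -0.103 (Lss) to 0.716 (Idi1).

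Hmgcs1, which condenses acetoacetyl-CoA into HMG-CoA, stood furthest apart. Its FPKM was 56.47, 63.2, 60.96, 63.84 and 62.54 in the saline libraries and 55.43, 53.51, 52.34, 53.82 and 55.42 in the Ceapin-A7 libraries. Every Ceapin-A7 library lay below every saline library, a separation that 0.688% of all genes had in this direction. The level was 11.8% lower, a log2 fold change of -0.18 ± 0.039 (SE) with an interval of -0.27 to -0.10, an unadjusted p of 6.84e-04 by limma (adjusted p = 0.472) and an exact permutation p of 0.00794, the smallest this design can give.

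Sqle, the epoxidase that commits squalene to sterols, read 27.74, 26.88, 27.84, 27.84 and 30.42 FPKM after saline and 24.59, 27.05, 25.29, 25.74 and 25.86 after Ceapin-A7. The groups overlapped in FPKM through Ceapin-A7 replicate 2 and saline replicate 2, and separated once the libraries were rescaled. The log2 fold change was -0.13 ± 0.039 (unadjusted p = 0.00629 by limma, exact permutation p = 0.00794). Cyp51 read 17.79, 20.97, 19.55, 20.22 and 21.59 FPKM after saline and 18.68, 17.23, 17.5, 18.35 and 17.9 after Ceapin-A7, with saline replicate 1 inside the Ceapin-A7 range. Its log2 fold change was -0.16 ± 0.052 (unadjusted p = 0.0112 by limma, exact permutation p = 0.0238).

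Idi1 and Fdft1 were also lower, with more overlap. Idi1 lay between 26.15 and 33.51 FPKM after saline and between 24.05 and 28.48 after Ceapin-A7. Its log2 fold change was -0.17 (interval -0.34 to -0.006, exact permutation p = 0.0794). Fdft1 lay between 36.53 and 40.99 FPKM after saline, and 4 of 5 Ceapin-A7 libraries were below that range. Its log2 fold change was -0.11 (interval -0.21 to -0.009, exact permutation p = 0.0317). The remaining 3 members overlapped widely. Srebf2 itself read 47, 40.85, 47.76, 47.51 and 47.77 FPKM after saline and 43.31, 42.23, 44.96, 46.97 and 45.8 after Ceapin-A7, a log2 fold change of -0.05 (interval -0.14 to 0.05). Insig1 had -0.03 (interval -0.20 to 0.14) and Lss -0.05 (interval -0.18 to 0.08).

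Lens fibre markers were above 1000 FPKM in saline replicates 1, 2 and 4 and Ceapin-A7 replicates 1 and 5. Without those 5 libraries, which leaves 2 saline and 3 Ceapin-A7 libraries, the log2 fold changes were -0.21 for Hmgcs1, -0.16 for Sqle, -0.21 for Cyp51, -0.27 for Idi1 and -0.15 for Fdft1, all still below 0. Rod markers summed to 14098.1 and 13142.9 FPKM and Müller glia markers to 472.4 and 623.8 FPKM in saline replicates 4 and 5, against at least 17923.1 and 893.6 in the other 8 libraries. After Ceapin-A7, 6 of 6 rod markers and 5 of 5 cone markers were higher. Of these, 1 and 3 had an unadjusted p of 0.05 or less by limma, where 5.04% of all genes were higher at that threshold. The part of these cells in the members' values was not tested beyond leaving out libraries. Without saline replicates 4 and 5 Hmgcs1 stood at -0.17, Sqle at -0.11 and Fdft1 at -0.14, and 3 members had an unadjusted p of 0.05 or less, against 5.01% of all genes. After the correction for GC trend the values were -0.19 for Hmgcs1, -0.14 for Sqle and -0.16 for Cyp51. Without Ceapin-A7 replicate 3, the library with the lower but blurred depth estimate, 3 members were at an unadjusted p of 0.05 or less, against 7.88% of all genes.

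**Figure D3:**
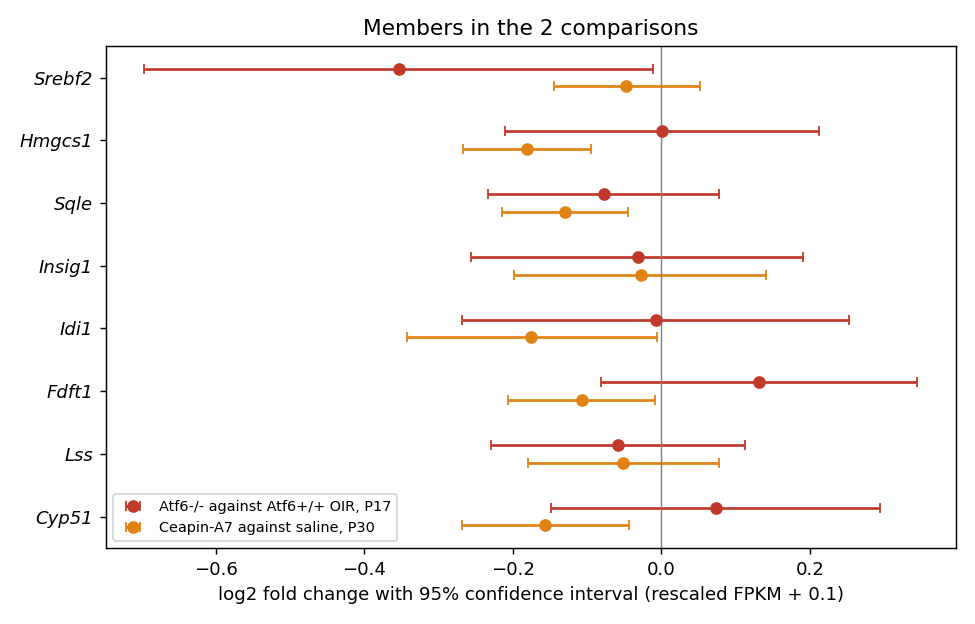
Log2 fold change of the 8 members in the 2 comparisons, with 95% confidence intervals from limma, on the log2(rescaled FPKM + 0.1) scale. The Ceapin-A7 points all lie below 0, 5 of them with intervals that do not reach 0, and the Atf6-/- points lie on both sides, with the Srebf2 interval the widest.

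The effects of the 2 perturbations were then compared directly in a fit of all 20 libraries, as the effect of genotype minus the effect of Ceapin-A7. No library is shared between the experiments. Of the 8 members 0 passed an adjusted p under 0.05, against 0.032% of 15628 genes, and 0 had an unadjusted p of 0.05 or less, against 9.2%. The lowest p was that of Fdft1, at a difference of 0.24 (interval -0.001 to 0.48, unadjusted p = 0.0512 by limma). For Srebf2 the difference was -0.31 (interval -0.66 to 0.05) and for Hmgcs1 0.18 (interval -0.05 to 0.42). With libraries weighted by their spread 3 members passed, against 4.76% of all genes: Srebf2 at -0.45 (adjusted p = 0.0325 by limma), Hmgcs1 at 0.30 (adjusted p = 0.0476) and Fdft1 at 0.33 (adjusted p = 0.0478). Weighting was the one alternative of those run in which any member passed, and over these alternatives the adjusted p ran up to 0.846 for Srebf2, 0.873 for Hmgcs1 and 0.797 for Fdft1.

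Of 14 other enzymes of the route, 0 passed an adjusted p under 0.05 in either experiment. At P30, p before adjustment was at or under 0.05 in 3, all lower, where 5.32% of all genes were lower at that threshold. The 3 were Msmo1, which removes methyl groups from sterols, at -0.26 (unadjusted p = 0.00125 by limma), the sterol desaturase Sc5d at -0.16 (unadjusted p = 0.00137) and the phosphomevalonate kinase Pmvk at -0.28. Sc5d read 22.74, 24.08, 23, 25.19 and 25.25 FPKM after saline and 21.89, 21.97, 20.95, 21.63 and 20.98 after Ceapin-A7, with no overlap. Msmo1 read 38.09, 46.63, 41.74, 44.74 and 47.53 FPKM after saline and 36.57, 39.11, 36.64, 35.58 and 34.41 after Ceapin-A7, with saline replicate 1 inside the Ceapin-A7 range. Pmvk read 43.08, 41.5, 40.39, 63.46 and 42.09 FPKM after saline and 31.27, 39.15, 38.42, 40.46 and 37.85 after Ceapin-A7, with saline replicate 4 far above the rest. Its log2 fold change was -0.17 without that library, -0.22 (unadjusted p = 0.0726 by limma) without Ceapin-A7 replicate 1, the lowest, and -0.064 without the 5 libraries rich in lens markers. The remaining 11 lay on both sides of 0 and the median of the 14 was -0.03. At P17, 7 were higher and 7 lower, 0 of them with p before adjustment at or under 0.05, and the median was 0.01.

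Of 8 genes of cholesterol uptake and transport, 0 had an unadjusted p of 0.05 or less in either experiment. Their median log2 fold change was -0.04 at P17 and -0.03 at P30.

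A list of 7 genes held those that sense sterols and carry and cut SREBP2, together with Srebf1 and genes of the ATF6 family. Of these, 0 passed an adjusted p under 0.05 in either experiment. At P30, 0 were at an unadjusted p of 0.05 or less. The values were -0.05 for the escort Scap, -0.04 for Insig2, 0.08 for the site-1 protease Mbtps1, -0.01 for the site-2 protease Mbtps2, -0.09 for Srebf1, which encodes SREBP1, and 0.01 for Atf6. At P17, Mbtps2 was 13.3% higher in Atf6-/- retinas (log2 fold change 0.18, unadjusted p = 0.0436, adjusted p = 0.382 by limma), Mbtps1 had -0.05, Scap -0.16, Srebf1 -0.04, Insig2 0.00 and Atf6 0.03. Of 4 genes of sterol-regulated protein degradation, 1 was lower at P30 with an unadjusted p of 0.05 or less, against 5.32% of all genes. It was the ubiquitin ligase Rnf145, at -0.18 (unadjusted p = 0.0192, adjusted p = 0.472 by limma), which had -0.06 at P17. Rnf145 read 75.13 and 71.36 FPKM in saline replicates 4 and 5. It read 55.43 to 61.65 in the other saline libraries and 55.25 to 58.53 after Ceapin-A7.

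Of 11 genes of cholesterol export and turnover, 2 were higher at P17 with an unadjusted p of 0.05 or less, and 1 was lower. At that threshold 6.92% of all genes were higher and 5.83% lower. The 2 were Cyp27a1, a sterol hydroxylase, at 0.40 (unadjusted p = 0.00875 by limma) and the carrier Apoe at 0.24. The 1 was the neuronal cholesterol hydroxylase Cyp46a1, at -0.19. The adjusted p of these genes by limma were 0.357 to 0.374. At P30, 0 of 11 were at that threshold, with Apoe at 0.32 (interval -0.14 to 0.78) and Cyp27a1 at 0.01. Leaving out 1 library, the value of Apoe ran from 0.18 (without saline replicate 4) to 0.47 (without saline replicate 3). Pigment epithelium markers, which mark a neighbouring cell layer, summed to 9.2 to 76.1 FPKM in Atf6+/+ and 37.4 to 251.3 FPKM in Atf6-/- OIR retinas, and 4 of 5 of these markers were higher with p before adjustment at or under 0.05. At P30 they summed to 97.0 to 209.6 FPKM after saline and 35.0 to 148.5 after Ceapin-A7, and 4 of 5 were lower. Of these, 2 had an unadjusted p of 0.05 or less by limma, where 5.32% of all genes were lower at that threshold. Their part in these values and in those of the members was not tested. Of 13 fatty acid genes under SREBP1, 0 passed an adjusted p under 0.05 in either experiment. An unadjusted p of 0.05 or less was seen in 1 at P30, against 10.4% of all genes. At P17 it was seen in 2, against 12.7%. The desaturase Scd2 was lower at P30 at -0.18 with no overlap (unadjusted p = 0.00194, adjusted p = 0.472 by limma). At P17 Fads1 had -0.18 (adjusted p = 0.374 by limma) and Gpam 0.14 (adjusted p = 0.371).

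After Ceapin-A7, 14 of 14 ATF6 targets were lower, where 49.7% of all genes were lower, with a median log2 fold change of -0.08. An unadjusted p of 0.05 or less by limma was seen in 2, against 10.4% of all genes. They were the disulfide isomerase Pdia6 at -0.13 and the degradation factor Sel1l at -0.10. The adjusted p of all 14 by limma were 0.472 or more. Hspa5 read 110.2, 109.92, 106.39, 138.04 and 161.86 FPKM after saline and 105.8, 112.52, 131.64, 109.92 and 117.32 after Ceapin-A7, with saline replicates 4 and 5 the highest, and its log2 fold change was -0.10 with them and 0.06 without them. Saline replicates 4 and 5 were also the highest saline libraries for Sel1l, Manf and Xbp1, though not for Pdia6. Sel1l read 26.42 and 28.82 FPKM in them, 24.75 to 24.96 in the other saline libraries and 23.87 to 24.67 after Ceapin-A7. Manf read 85.69 and 93.67 FPKM in saline replicates 4 and 5, and 71.33 to 76.54 in the other saline libraries. Xbp1 read 54.05 and 66.47, and 38.29 to 45.42 in the others. How many of the 14 were lower without these libraries was not counted. At P17, 10 of 14 were lower with a median of -0.15, where 49.3% of all genes were lower. Sdf2l1, a chaperone partner, was the only one at an unadjusted p of 0.05 or less, against 12.7% of all genes. It stood at -0.46 (unadjusted p = 0.016 by limma).

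**Figure D4:**
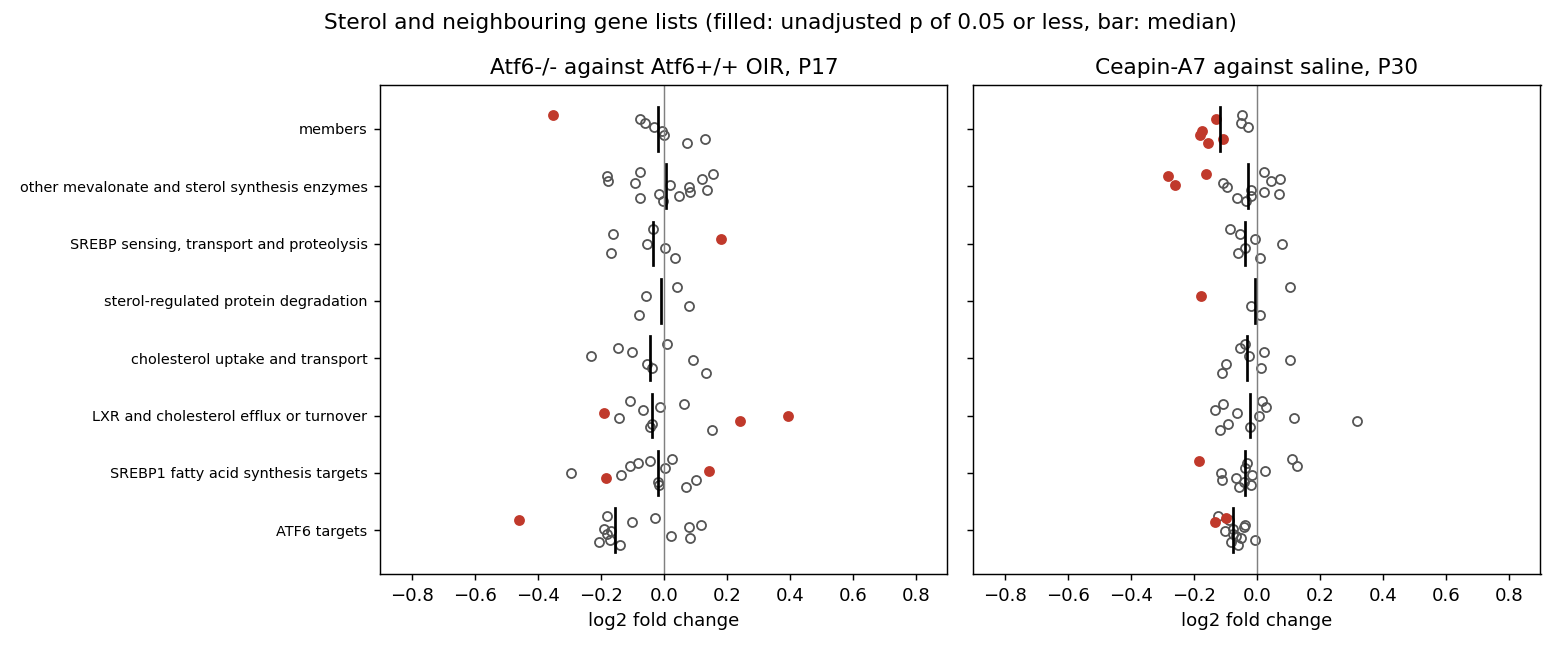
Log2 fold change of every gene tested in the sterol and neighbouring lists at P17 (left) and P30 (right). Each circle is a gene, red where the unadjusted limma p was 0.05 or less, and the bar is the list's median. At P30 the members and the ATF6 targets lie below 0 throughout, and the uptake genes lie on both sides in both panels.

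The genes whose pattern was most like that of the 7 targets were sought over all 20 libraries, by the Pearson correlation of their log2 deviations from their group means with the mean deviation of the targets, among 12559 genes. The 5 highest were Stard4 at 0.932, Crbn at 0.908, Mtrex at 0.901, Tatdn1 at 0.897 and Slc30a4 at 0.893. Stard4 encodes a sterol carrier and Crbn a substrate receptor of a ubiquitin ligase. Stard4 read 4.9 FPKM in Atf6+/+ replicate 4 and 2.84 to 3.56 in the rest of that group, and 2.39 in Atf6-/- replicate 5, the lowest of its group. The enzymes Sc5d and Msmo1 had 0.879 and 0.861. Srebf2 had -0.641 and Srebf1 -0.668. These values differed between the experiments. Srebf1 had -0.883 over the P17 libraries and -0.05 over the P30 libraries, and Srebf2 -0.663 and -0.477. Sc5d and Msmo1 both had 0.932 at P17, and 0.447 and 0.526 at P30. The transcripts of the 5 genes most alike had 41.2% to 44.0% GC, and the 200 most alike had a median of 42.1% against 50% over all genes. The points of these correlations share their libraries, their depth and the GC trend.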

How the data were processed

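The authors' libraries were strand-specific mRNA libraries read on a DNBSEQ instrument. Per the labels, the genome was GRCm39 and the tools were HISAT2 (version 2.0.4), RSEM (version 1.2.18) and DESeq2 (version 1.4.5). The deposited values are FPKM from RSEM, in which fragments are scaled by transcript length and by the library's mapped fragments, rounded to 2 decimals. FPKM are not counts, so no count test was run and no counting intervals were computed. Groups and replicate numbers came from the sample labels, and 0 value columns belonged to no sample.

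The 2 experiments were fitted separately, with 10 libraries each. Library factors by the median of ratios (0.9461 to 1.042 at P17) were divided out, 0.1 was added and log2 values were taken. Genes averaging more than 0.1 FPKM entered limma (3.58.1; eBayes, trend option on; R 4.3.3). P-values were adjusted by Benjamini-Hochberg across every gene in a fit and called under 0.05, with counts at an unadjusted threshold of 0.05 beside them. The added 0.1 makes log2 fold changes of low genes too small. The difference of effects was a contrast in a fit of all 20 libraries. Single values also had an exact two-sided permutation test. The fits were tested on simulated data with 200 changed genes, called at an adjusted p under 0.05. Of 2-fold changes, 95.5% were recovered at P17 and 93.0% at P30. Of 1.25-fold changes, 17.5% and 42.0% were recovered, so changes of that size were mostly missed. P-values measure the spread between these libraries, whose link to single animals is not given in the labels. Same-numbered libraries of a comparison did not deviate together, so the fits have no block.

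The members, the lists and the motifs were chosen with earlier results of these data known. Named were all 8 members, every listed gene with an unadjusted p of 0.05 or less (up to the 6 smallest p per list and comparison), Scap, Mbtps1, Mbtps2, Insig2, Srebf1, Atf6 and Hspa5 whatever their values, and the 5 genes most alike in pattern. Some genes of the lists are not reported here and do not enter their counts. Hsd17b7 was named for its promoter letters after they had been seen, and Manf and Xbp1 for their saline values after these had been seen. GC content came from the longest transcript in GENCODE M21, matched by NCBI gene number or else by symbol (98.4% and 98.6% of genes tested). Promoter sequences came from RefSeq (GRCm38.p6), another build than that of the files, so no position was set beside a measured one. Alternatives were other pseudocounts, filters, scalings and variance models, a replicate block, a GC correction (lowess, span 0.3), a fit of all 20 libraries and leaving out each library. Leaving out groups of libraries together was chosen after seeing the data.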

Additional observations from a re-analysis of the deposited data

Results flagged for a closer look

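Of the 32 sets of 5 values formed by the 8 members in the 4 groups, 3 held a library whose gap to its nearest neighbour exceeded 0.71 of the range, where chance gives about 1 in 20. Srebf2 read 40.85 FPKM in saline replicate 2, below the other 4 saline libraries at 47 to 47.77, with a gap of 0.889 of the range. Sqle read 30.42 FPKM in saline replicate 5, above 26.88 to 27.84 in the rest of its group, with a gap of 0.729. Fdft1 read 30.56 FPKM in Atf6+/+ OIR replicate 4, above 22.39 to 23.52 in the rest, with a gap of 0.862. In that library all 7 targets were the highest of their group, and its GC trend was -0.31 against 0.33 to 0.386 in the rest. Saline replicate 2 had a GC trend of -0.332, against 0.08 to 0.166 in the other saline libraries. The part of the GC trend in these values was not tested.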

How the results depend on the processing

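In the Atf6-/- comparison, 1 member passed an adjusted p under 0.05 with array weights and 1 with Atf6+/+ replicate 4 and Atf6-/- replicate 5 left out together, and 0 otherwise. At an unadjusted p of 0.05 or less the count was 0 with no filter, without trend and after GC correction, 2 with array weights, 3 without those 2 libraries together, and 0 to 2 leaving out 1 library (2 without Atf6+/+ replicate 4, 1 without Atf6-/- replicate 5, 0 for each other). After Ceapin-A7 it was 3 without trend, 2 in the fit of all 20 libraries, 3 without saline replicates 4 and 5, and 3 to 5 leaving out 1 library (3 without saline replicate 3, Ceapin-A7 replicate 3 or Ceapin-A7 replicate 5), and the median was -0.157 on the TPM scale. Leaving out 1 library the median ran from -0.133 to -0.103 after Ceapin-A7 and from -0.077 to 0.049 in the Atf6-/- comparison. For the difference of effects 3 members passed with array weights, and 0 to 0 leaving out 1 library.

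These signs turned. In the Atf6-/- comparison the log2 fold change of Hmgcs1 was -0.00061 with FPKM above 0.1 in every library, -0.0036 with a mean FPKM above 1, -0.017 as deposited, -0.024 on the TPM scale and -0.085 after GC correction. Insig2 was -0.0011, -0.014, -0.021 and -0.052 under the last 4 of these. Insig1 was 0.073 with array weights and 0.096 without the 2 libraries, and Idi1 0.0031 after quantile normalization, 0.097 and 0.14. Msmo1 was -0.0056 on the TPM scale. After GC correction Msmo1 was -0.05, Srebf1 0.088 and Atf6 -0.02. After Ceapin-A7, without the 5 libraries rich in lens markers, Mbtps2 was 0.019, Srebf1 0.05, Cyp27a1 -0.16 and Sdf2l1 0.14. Without saline replicates 4 and 5 Cyp27a1 was -0.061, Gpam -0.057 and Hspa5 0.064. On the TPM scale Atf6 was -0.028, Cyp27a1 -0.031 and Gpam -0.014, Gpam with array weights -0.0023 and Mbtps2 after quantile normalization 0.0061. Leaving out 1 library in the Atf6-/- comparison, Hmgcs1 ran from -0.041 to 0.07, Insig1 from -0.085 to 0.033, Idi1 from -0.083 to 0.066, Msmo1 from -0.04 to 0.1, Insig2 from -0.039 to 0.071, Srebf1 from -0.15 to 0.044 and Scd2 from -0.13 to 0.0092. After Ceapin-A7 Insig1 ran from -0.092 to 0.021, Mbtps2 from -0.04 to 0.016, Atf6 from -0.012 to 0.03, Cyp27a1 from -0.046 to 0.063 and Gpam from -0.015 to 0.052. The causes were not tested. Of the single-gene values under alternatives, 1291 kept direction and call, 69 turned sign and 12, all at P17, passed only with array weights or without the 2 libraries.

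Of genes at an unadjusted p of 0.05 or less, 54.3% were higher at P17, against 30.5% as deposited and 30.7% on the TPM scale, and after Ceapin-A7 48.6%, against 57.4% and 26.8%. The adjusted count over all genes at P17 was 5, against 2772 with array weights, 3914 without the 2 libraries, 11 in the fit of 20 and 8 after GC correction. With the replicate number as a block 0 members passed, and 1 and 4 had an unadjusted p of 0.05 or less. Correlations of same-numbered libraries' deviations were -0.392 to 0.313 and -0.375 to 0.454, so the numbers do not pair them. FPKM to 2 decimals and 5 libraries a group limit what can be seen, and within the 2 comparisons the widest interval of a member was that of Srebf2 at P17, -0.70 to -0.011.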
